A study of Mus musculus with 7 samples.

Results

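The comparison set cells at an early stage of reprogramming, sorted on day 6, against fibroblasts, gene by gene. The day 6 cells were of strain B6/129 and carried engineered alleles, which the labels give as Rosa26-TdTomato with a B6 female and Col1a-OSKM with a 129 male. They also carried the Nanog-CreER reporter, and came from reporter mouse embryonic fibroblasts (MEF) plated on day 0 in fibroblast medium. From day 1 they were kept in knock-out DMEM with serum replacement and serum plus doxycycline (Dox), which switches on the OSKM factors Pou5f1 (Oct4), Sox2, Klf4 and Myc, and 4OHT, which activates CreER. Cells positive for tdTomato, the mark left where Nanog-driven Cre had been active, were then sorted, with no MEF feeders. The fibroblast library came from MEF of another strain, A12 (Mbd3 flox/-), with no treatment named in the labels. These MEF are therefore not the parental culture of the day 6 cells, and strain, genotype, medium, treatment and sorting cannot be told apart. Each side was 1 library, so the counts and ratios describe 2 libraries and carry no replicate error and no test.

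Gene levels were in RPKM, which divides the reads of an exon by its length and by the size of its library, averaged over the exons of a gene by exon length. The series measured 29686 genes, of which 16154 had 2 RPKM or more in MEF, on day 6 or in both and entered the comparison. Differences are given as log2((day 6 RPKM + 1)/(MEF RPKM + 1)), called the log2 ratio, and a gene was counted as higher or lower from 2-fold or 4-fold on that scale. At the floor, 444 genes had a larger value of 2 to 2.5 RPKM and 538 genes outside it had 1.5 to 2 RPKM. At the 4-fold line, 323 genes had an absolute log2 ratio of 2.0 to 2.1 and 329 had 1.9 to 2.0.

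Fibroblasts are mesenchymal cells that lie singly in a fibrous matrix that they secrete, pull on it with contractile actin bundles, and express transcription factors of the Snai, Zeb, Twist and Prrx families. Cells reprogrammed with OSKM are known to pass through a mesenchymal-to-epithelial transition, in which they form E-cadherin junctions, before the pluripotency network is established. That network is itself known to start with genes such as Nanog, Sall4 and Lin28a and to take on others, such as Zfp42, Dppa3 and Klf2, later.

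The MEF library held 45 megareads and the day 6 library 46, as read from the steps of the values. In MEF fibroblast transcripts were present, with Thy1 (583 and 8.04), Col1a1 (9085 and 15.03) and Vim (3595 and 86.3) in RPKM in MEF and on day 6, in that order. Of 16 listed genes of fibroblast surface and identity, 9 were at least 2-fold lower on day 6, 2 higher and 5 within 2-fold. Over all tested genes 31.2% were lower and 22.4% higher. The summed level of the 16 was 8477 RPKM in MEF and 6981 on day 6, so not all of the list was lower. The MEF library also held transcripts listed for other cell types. Over 24 listed macrophage and monocyte genes the summed level was 7045 RPKM in MEF and 102 on day 6, against 12.1 to 367 in the 5 other libraries of the series, and 10 of these genes, among them Ptprc, Fcer1g and Tyrobp, were without reads on day 6. Over 20 listed muscle genes the sums were 1047 and 213 RPKM, and over 13 neutrophil and mast cell genes 1962 and 49.98. In the 5 other libraries the muscle sum was 30.9 to 595 RPKM and the neutrophil and mast cell sum 5.02 to 456. For both lists iPSC and ESC were above day 6. Apart from these lists, the Y-linked gene Eif2s3y was at 114 RPKM in MEF and 0 on day 6. Of 12 tested genes on the Y chromosome 9 were at least 4-fold lower and 0 at least 4-fold higher, with a median of −4.18. Whether the 2 sources differed in sex was not tested. On day 6 the ribosomal RNA model Gm42418 was at 153285 RPKM against 501 in MEF, and 51 of 67 replication-dependent histone genes were higher. The part of these library features in the gene differences below was not tested, other than by the alternative scalings that leave out ribosomal RNA and histones. In bulk RNA, fewer cells of a type and less RNA per cell cannot be told apart.

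Day 6 exceeded MEF by 2-fold or more in 3613 of the 16154 genes (22.4%), MEF exceeded day 6 by as much in 5040 (31.2%), and 7501 (46.4%) lay within 2-fold. At 4-fold, 1330 genes (8.23%) were higher and 2607 (16.1%) lower, and at 16-fold 241 were higher and 676 lower. The median log2 ratio over all tested genes was −0.13, with quartiles of −1.38 and 0.87. With both libraries scaled to equal totals over protein-coding genes 4575 genes were at least 2-fold higher and 4416 lower, and with equal totals leaving out histones, ribosomal RNA models and mitochondrial genes 4676 and 4358, so the excess of lower genes at 2-fold did not hold under these scalings. Each list below is to be read beside 22.4% and 31.2%. Both sides of the comparison held genes the other lacked: 327 tested genes had no read on day 6 and 94 had none in MEF.

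**Figure D1:**
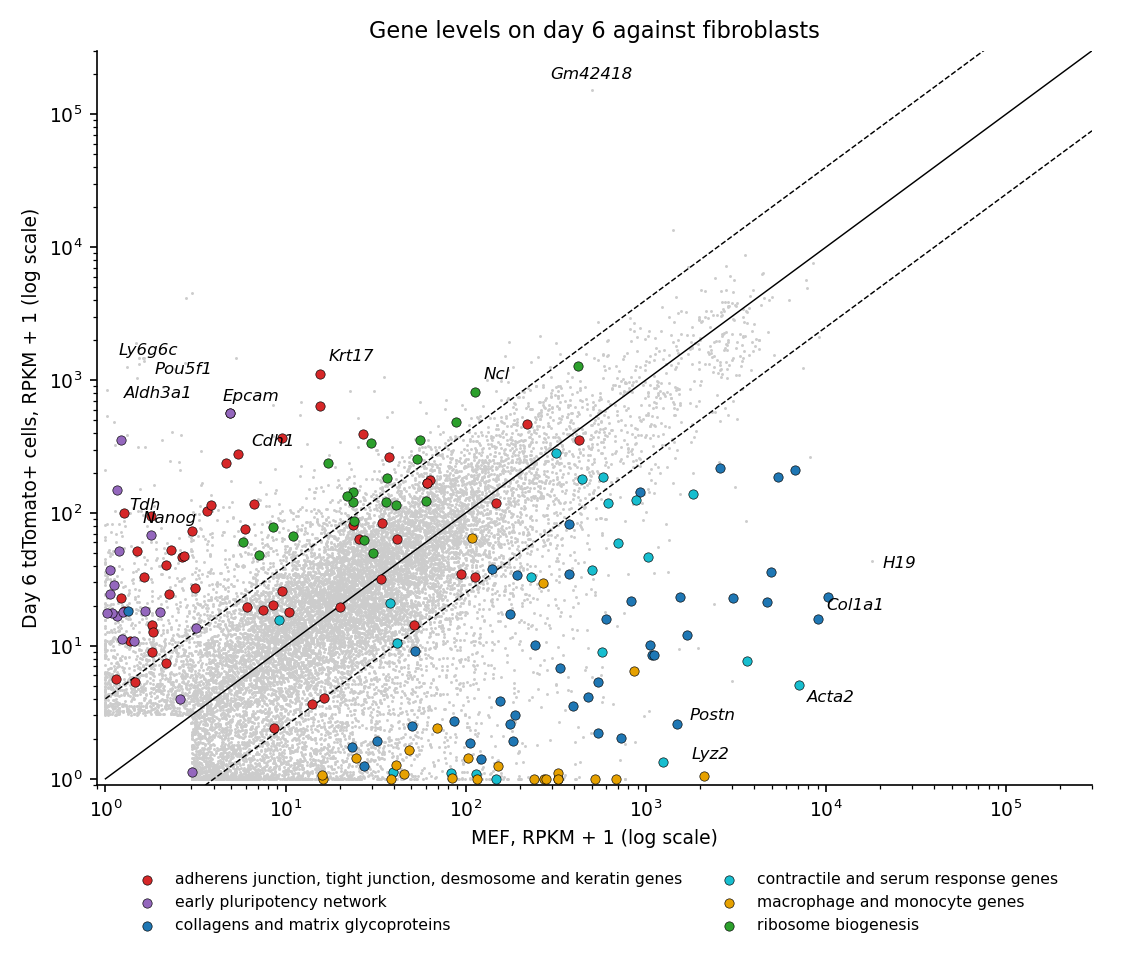
RPKM + 1 of each tested gene (grey points) in MEF (x axis, log scale) and on day 6 (y axis, log scale), with members of 6 gene lists in colour. The solid line marks equal levels and the dashed lines 4-fold. Junction and keratin genes and the pluripotency network lie mostly above the upper line, and matrix, contractile and macrophage genes mostly below the lower one.

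Genes past 4-fold were then read exon by exon. Of 929 genes that were 4-fold higher and had at least 3 usable exons, 886 (95.4%) had every exon higher on day 6, and 745 (80.2%) had every exon at least 2-fold higher. Of 2101 such lower genes, 2042 (97.2%) had every exon lower and 1873 (89.1%) every exon at least 2-fold lower. A further 367 higher and 448 lower genes rested on 1 or 2 exons. The genes were called from the mean of their exons, so agreement among exons follows in part from that choice. No such share was computed for the other genes. Exons also share their library, so these shares describe how a difference ran along the transcript and not whether it would recur in another library.

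Genes of epithelial junctions were mostly higher on day 6. E-cadherin, the calcium-dependent adhesion molecule that holds epithelial cells together, is encoded by Cdh1 (ENSMUSG00000000303, chr8:106603351-106670246, plus strand; mm10, as are all gene coordinates here). Cdh1 was at 4.46 RPKM in MEF and 275 on day 6, a log2 ratio of 5.66, with a 95% interval of the read ratio, covering counting error only, of 58.9 to 67.4. All 17 of its usable exons were higher, with log2 ratios from 4.79 to 7.01. Epcam, an epithelial adhesion protein (ENSMUSG00000045394, chr17:87635979-87651129, plus strand), was at 3.94 RPKM in MEF and 559 on day 6 (log2 ratio 6.82, interval 128 to 158). Of 20 listed genes of adherens junctions and apical-basal polarity, 13 were at least 2-fold higher, 2 lower and 4 within 2-fold, and 1 did not reach 2 RPKM. The median of the tested members was 1.46. The basolateral sorting adaptor Ap1m2 (0.272 RPKM in MEF and 98.5 on day 6), the membrane protease St14 (3.68 RPKM in MEF and 238 on day 6), its inhibitor Spint1 (1.67 RPKM in MEF and 45.8 on day 6) and the apical polarity gene Crb3 (0.491 RPKM in MEF and 50.5 on day 6) had the largest ratios of this list beside Epcam and Cdh1. The catenins that couple cadherins to actin differed less: Ctnna1 was at 218 RPKM in MEF and 467 on day 6, whereas Ctnnb1 (424 RPKM in MEF and 353 on day 6) and Ctnnd1 (146 RPKM in MEF and 118 on day 6) lay within 2-fold. The lower members were P-cadherin, Cdh3 (111 RPKM in MEF and 31.8 on day 6), and the basal polarity gene Llgl1, at 50.6 RPKM in MEF and 13.3 on day 6, while its paralog Llgl2 went the other way (6.49 RPKM in MEF and 17.6 on day 6).

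Tight junctions seal the space between epithelial cells. Here 10 of 18 listed genes were higher, 3 lower and 2 within 2-fold, 3 stayed below 2 RPKM, and the median was 2.98 over tested members and 1.796 over all 18. Claudins, the strand-forming membrane proteins, were unequal. Cldn6 was at 2.67 RPKM in MEF and 102 on day 6, Cldn7 at 1.73 RPKM in MEF and 46.3 on day 6, Cldn4 at 4.96 RPKM in MEF and 74.7 on day 6 and Cldn3 at 1.25 RPKM in MEF and 23.4 on day 6, whereas Cldn11 was at 13.1 RPKM in MEF and 2.67 on day 6 and Cldn12 at 32.95 RPKM in MEF and 30.7 on day 6. The other strand protein, occludin (Ocln), was at 0.224 RPKM in MEF and 21.9 on day 6, and the cytoplasmic plaque gene Tjp3 (0.816 RPKM in MEF and 13.4 on day 6) was higher than Tjp1 in ratio (33.2 RPKM in MEF and 82.4 on day 6). The plaque genes Cgn and Cgnl1 were lower on day 6, at 33.8 against 92.6 RPKM and 1.43 against 7.58 RPKM. The members that were lower thus included plaque genes and 1 claudin, Cldn11.

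Desmosomes, the spot junctions that anchor keratin filaments, had 11 of 12 listed genes higher and none lower, and 1, Dsg3, below 2 RPKM (0.0675 RPKM in MEF and 1.82 on day 6). The tested median was 2.80. Plakophilin 1 (Pkp1) was at 0.783 RPKM in MEF and 94.6 on day 6 (interval 103 to 141). Desmoplakin (Dsp), desmocollin 2 (Dsc2), desmoglein 2 (Dsg2) and envoplakin (Evpl) were at 71.7, 51.5, 39.4 and 31.9 RPKM on day 6 against 2.03, 1.31, 1.17 and 0.634 in MEF. Keratins form the filaments themselves, in pairs of a type I and a type II chain. Of 12 listed, 9 were higher, 1 lower and 2 below 2 RPKM. Krt17 was at 14.5 RPKM in MEF and 1112 on day 6 (interval 71.96 to 81.5), Krt16 at 14.5 RPKM in MEF and 642 on day 6, Krt14 at 25.8 RPKM in MEF and 391 on day 6 and Krt19 at 36.6 RPKM in MEF and 261 on day 6. The simple-epithelium pair was uneven, with Krt8 at 365 RPKM on day 6 and its partner Krt18 at 63.1, from 8.52 and 24.5 in MEF. Krt7 was the 1 lower member (15.4 RPKM in MEF and 3.03 on day 6). Keratin genes are alike in sequence and near-identical copies exist, so reads may be split between them.

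Hemidesmosomes fix epithelial cells to the basement membrane. Integrin beta 4 (Itgb4) was at 3.95 RPKM in MEF and 174 on day 6, with an interval of 42.9 to 48.1, and its partner Itga6 at 21.5 RPKM in MEF and 81.9 on day 6. The only collagen that was higher on day 6 among those listed, Col17a1, encodes a hemidesmosomal transmembrane protein and was at 0.338 RPKM in MEF and 17.2 on day 6 (interval 41.1 to 63.96). The laminin chain Lamb3 (0.92 RPKM in MEF and 3.96 on day 6), which belongs to the epithelial laminin, was higher too, while Lama3 lay within 2-fold (3.67 RPKM in MEF and 7.21 on day 6). Lama1, the laminin chain of the earliest embryonic basement membranes, was at 2.74 RPKM in MEF and 21.2 on day 6. In contrast Lamb2, Lama2, Lamb1 and Lama4 were lower, with log2 ratios of −4.22, −3.64, −2.87 and −2.15, and over 10 listed laminins 3 were higher, 4 lower and 3 within 2-fold. Among 17 listed integrins 2 were higher, 9 lower and 3 within 2-fold, and 3 did not reach 2 RPKM. The collagen receptor Itga11 was at 114 RPKM in MEF and 0.0962 on day 6, the fibronectin receptor Itga5 at 262 RPKM in MEF and 24.8 on day 6 and the common chain Itgb1 at 929 RPKM in MEF and 225 on day 6.

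Of the transcription and splicing factors of epithelial cells that were listed, Klf5 (8.82 RPKM in MEF and 11.5 on day 6) was the 1 above 5 RPKM in MEF. Of 16 listed epithelial transcription and splicing regulators 12 were higher, none lower and 2 within 2-fold, with 2 below the floor and a tested median of 3.32. Elf5 had no read in MEF and was at 20.02 RPKM on day 6, Ehf went from 0.0102 to 34.8, Grhl2 from 0.0319 to 17.8 (interval 273 to 1248) and the epithelial splicing regulator Esrp1 from 0.213 to 29.4 RPKM. Ovol1, a repressor that opposes the mesenchymal state, was at 0.374 RPKM in MEF and 8.76 on day 6, while Ovol2 stayed below the floor at 1.62 RPKM. Trp63, the regulator of stratified epithelium, was also below it in both libraries (0.364 RPKM in MEF and 0.164 on day 6).

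The mesenchymal transcription factors were mostly lower. Of 21 listed, none was higher, 18 were lower and 3 were within 2-fold, with a median of −2.54. Snai2 was at 42.9 RPKM in MEF and 0.182 on day 6, Snai1 at 52.7 RPKM in MEF and 1.58 on day 6, Twist1 at 87.5 RPKM in MEF and 4.51 on day 6, and Zeb2 at 22.9 RPKM in MEF and 0.378 on day 6. Zeb1 was at 19.5 RPKM in MEF and 1.63 on day 6, and the limb and craniofacial mesenchyme factors Prrx1 and Prrx2 were at 111 and 117 RPKM in MEF and 4.62 and 0.313 on day 6. The members within 2-fold were Tcf4 (21.8 RPKM in MEF and 18.2 on day 6), Tbx15 (36.8 RPKM in MEF and 28.7 on day 6) and Meox1 (2.11 RPKM in MEF and 3.29 on day 6).

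The Snai and Zeb proteins are known to repress epithelial genes by binding an E-box, CAGGTG, in their promoters, and serum response factor to bind the CArG box of contractile genes, so promoter windows were searched for these letters. The windows are from RefSeq (GRCm38.p6, the same build as mm10) and run from 250 bases before to 50 bases after an annotated start, 5′ to 3′ on the gene's strand. Those of Epcam, Crb3, Cldn4 and Myl9 are shown because they hold matches and their genes differed strongly. Capitals mark CAGGTG on either strand in the first 3 and the CArG box in the last. They lie at chr17:87635729-87636028 (plus strand), chr17:57061951-57062250 (plus strand), chr5:134946885-134947184 (minus strand) and chr2:156775214-156775513 (plus strand). The window of Myl9, a gene lower on day 6, also holds CAGGTG near its end, left in lower case.
Epcam: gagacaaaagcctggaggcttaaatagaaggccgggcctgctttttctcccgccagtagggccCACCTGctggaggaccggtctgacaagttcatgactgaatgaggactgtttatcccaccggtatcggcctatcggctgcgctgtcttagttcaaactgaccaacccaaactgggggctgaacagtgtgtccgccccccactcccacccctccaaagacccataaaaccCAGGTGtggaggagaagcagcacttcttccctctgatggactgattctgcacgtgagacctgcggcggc
Crb3: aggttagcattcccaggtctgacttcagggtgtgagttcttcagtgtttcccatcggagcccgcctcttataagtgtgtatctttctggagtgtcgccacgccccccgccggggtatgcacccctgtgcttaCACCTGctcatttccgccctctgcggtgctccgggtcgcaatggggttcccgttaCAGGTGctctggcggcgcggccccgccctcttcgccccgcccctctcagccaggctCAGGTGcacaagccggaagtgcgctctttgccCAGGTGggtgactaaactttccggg
Cldn4: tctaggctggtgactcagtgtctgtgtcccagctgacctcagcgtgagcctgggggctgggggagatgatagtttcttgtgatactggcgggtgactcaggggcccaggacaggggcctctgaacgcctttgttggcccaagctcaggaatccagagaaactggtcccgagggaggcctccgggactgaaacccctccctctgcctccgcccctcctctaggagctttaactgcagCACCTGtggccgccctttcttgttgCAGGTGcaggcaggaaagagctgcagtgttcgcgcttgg
Myl9: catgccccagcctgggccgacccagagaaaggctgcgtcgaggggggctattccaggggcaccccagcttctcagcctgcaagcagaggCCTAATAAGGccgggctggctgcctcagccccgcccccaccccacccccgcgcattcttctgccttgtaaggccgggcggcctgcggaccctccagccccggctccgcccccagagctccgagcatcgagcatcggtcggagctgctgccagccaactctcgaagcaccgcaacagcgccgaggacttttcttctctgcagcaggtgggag

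The table of windows was not complete. Of 61 distinct measured genes on the adherens, tight junction, desmosome and keratin lists, 37 had a window (Cdh1 had none), and 23 of these 37 (62.2%) held CAGGTG in at least 1 window. Counted by window, 28 of 52 (53.8%) held it, against 6640 of all 32851 windows (20.2%). For the 42 of these genes that were at least 2-fold higher, 24 of 34 windows (70.6%) did. The lists were drawn up for epithelial genes, with earlier results of these data known. These shares can therefore follow from the choice of members. The other E-boxes searched, CACGTG and CAGCTG, read the same on both strands and were each in 6 of the 52 windows (11.5%), against 7.15% and 16.3% of all windows. The share also moved with the size of the difference across all tested genes. CAGGTG was in 16.8% of 6440 windows of genes within 2-fold, in 18.4% of 1743 at 2 to 4-fold higher, in 27.4% of 803 at 4 to 16-fold higher and in 38.8% of 152 at 16-fold or more higher. On the lower side it stayed between 17.1% and 17.7%. CACGTG was in 4.61% of the windows at 16-fold or more higher and in 10.1% of those within 2-fold, and CAGCTG in 23.0% and 14.2%. The median GC content was 56.0% at 16-fold or more higher and 60.7% within 2-fold. A match is only a run of letters, windows of 1 gene can share sequence, and none of the 4 motifs can overlap another, so these shares describe the promoters and carry no test.

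**Figure D2:**
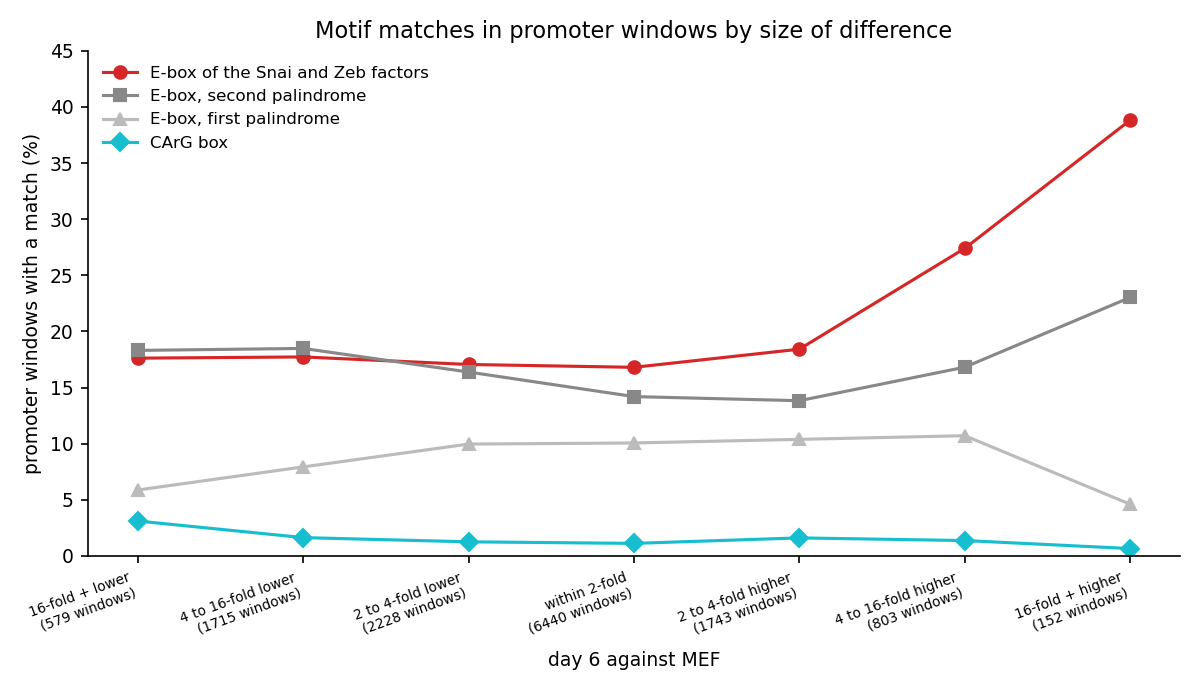
Share of RefSeq promoter windows (y axis, %) that hold each of 4 motifs, by the size and direction of the difference between day 6 and MEF (x axis, number of windows in parentheses). The E-box of the Snai and Zeb factors (red) is the line that climbs most, from 16.8% within 2-fold to 38.8% at 16-fold or more higher, and the CArG box (cyan) is at 3.11% among genes 16-fold or more lower. The first palindrome is CACGTG and the second CAGCTG.

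Genes of the extracellular matrix were almost all lower. Of 20 listed collagens 19 were at least 2-fold lower, 18 of them at least 4-fold, and 1 was higher, with a median log2 ratio of −6.26. Their summed level was 32251 RPKM in MEF and 212 on day 6, a ratio of 152. The fibrillar chains Col1a1 (ENSMUSG00000001506, chr11:94936224-94953042, plus strand) and Col1a2 were at 9085 and 10202 RPKM in MEF and 15.03 and 22.4 on day 6, and all 44 usable Col1a1 exons were lower, from −11.92 to −7.32. The OSKM cassette of the day 6 cells is labelled Col1a. Col1a2 and Col3a1 had log2 ratios of −8.77 and −7.10, beside −9.15 for Col1a1. Whether the cassette bears on the Col1a1 level was not tested. The basement membrane collagens Col4a1 and Col4a2 were at 20.9 and 15.02 RPKM on day 6 against 822 and 601, and Col18a1 was the least lowered (139 RPKM in MEF and 36.8 on day 6).

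Every one of 22 listed matrix glycoproteins and proteoglycans was at least 4-fold lower, with a median of −5.16. Periostin (Postn) was at 1492 RPKM in MEF and 1.597 on day 6, tenascin C (Tnc) at 543 RPKM in MEF and 1.21 on day 6 and biglycan (Bgn) at 4729.9 RPKM in MEF and 20.5 on day 6. Fibronectin (Fn1) kept a higher level than these, at 2583 RPKM in MEF and 217 on day 6, and its 45 usable exons ran from −4.86 to −2.08. Some members on this list are made by macrophages as well, such as Spp1 (3035 RPKM in MEF and 22.1 on day 6). Enzymes that process matrix followed: of 27 listed proteases, inhibitors and cross-linkers 26 were at least 4-fold lower and only Timp1 lay within 2-fold (444 RPKM in MEF and 270.2 on day 6). The collagen cross-linker Lox was at 1047 RPKM in MEF and 2.22 on day 6, the membrane protease Mmp14 at 524 RPKM in MEF and 23.1 on day 6 and the collagen chaperone Serpinh1 at 2766 RPKM in MEF and 619 on day 6. Mmp12, a macrophage protease, is on this list and on the macrophage list (40.01 RPKM in MEF and 0.272 on day 6).

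Contractile genes had some of the lowest ratios of the whole comparison. Of 21 listed, 18 were lower, none higher and 3 within 2-fold, with a median of −3.73. Smooth muscle actin (Acta2, ENSMUSG00000035783, chr19:34241090-34255590, minus strand) was at 7058 RPKM in MEF and 4.05 on day 6, and the MEF level was 1576 to 1933 times that of day 6 by the interval of reads. The regulatory light chain Myl9 was at 1240.4 RPKM in MEF and 0.347 on day 6, transgelin (Tagln) at 3649 RPKM in MEF and 6.68 on day 6, and calponin 1 (Cnn1) at 146 RPKM in MEF and had 0 reads on day 6. Genes of general cytoskeleton differed less. Non-muscle myosin Myh9 was at 317 RPKM in MEF and 282 on day 6, actinin 1 (Actn1) at 441 RPKM in MEF and 178 on day 6 and filamin A (Flna) at 579 RPKM in MEF and 184 on day 6. Serum response factor (Srf) lay within 2-fold (37.04 RPKM in MEF and 19.9 on day 6), as did its cofactor Mrtfb (8.16 RPKM in MEF and 14.8 on day 6), and the cofactor Mrtfa was lower (40.8 RPKM in MEF and 9.603 on day 6). CArG boxes were in 4 of 22 windows of the measured genes of this list (18.2%), against 535 of 32851 windows (1.63%). Among its genes at least 2-fold lower they were in 3 of 17 windows (17.65%). The list was drawn up for contractile and serum response genes, so this share can follow from the choice of members. The MEF library also held skeletal and cardiac muscle transcripts, with 16 of 20 listed genes lower on day 6, among them Myh3 (39.98 RPKM in MEF and 0.725 on day 6) and Actc1 (89.4 RPKM in MEF, no read on day 6). How much of the smooth muscle genes' level such cells gave was not tested.

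TGF-beta signals are known to sustain the mesenchymal state, and this list was mostly lower, with 14 of 19 genes lower, 1 higher and 4 within 2-fold. Among the ligands Tgfb3 was at 406 RPKM in MEF and 0.899 on day 6, Tgfb2 at 53.2 RPKM in MEF and 2.32 on day 6 and Tgfb1 at 48.1 RPKM in MEF and 4.99 on day 6. The receptors Tgfbr1, Tgfbr2 and Tgfbr3 had log2 ratios of −1.37, −1.94 and −3.55. Tgfbr1 was not lower under every choice of exons: its log2 ratio was 0.47 with the highest exon of the gene. The secreted target Tgfbi was at 354 RPKM in MEF and 2.27 on day 6. The shared signal transducers differed little, with Smad2 at 28.6 RPKM in MEF and 25.2 on day 6 and Smad4 at 57.7 RPKM in MEF and 70.3 on day 6. The inhibitor Skil was the higher member (21.2 RPKM in MEF and 50.6 on day 6).

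**Figure D3:**
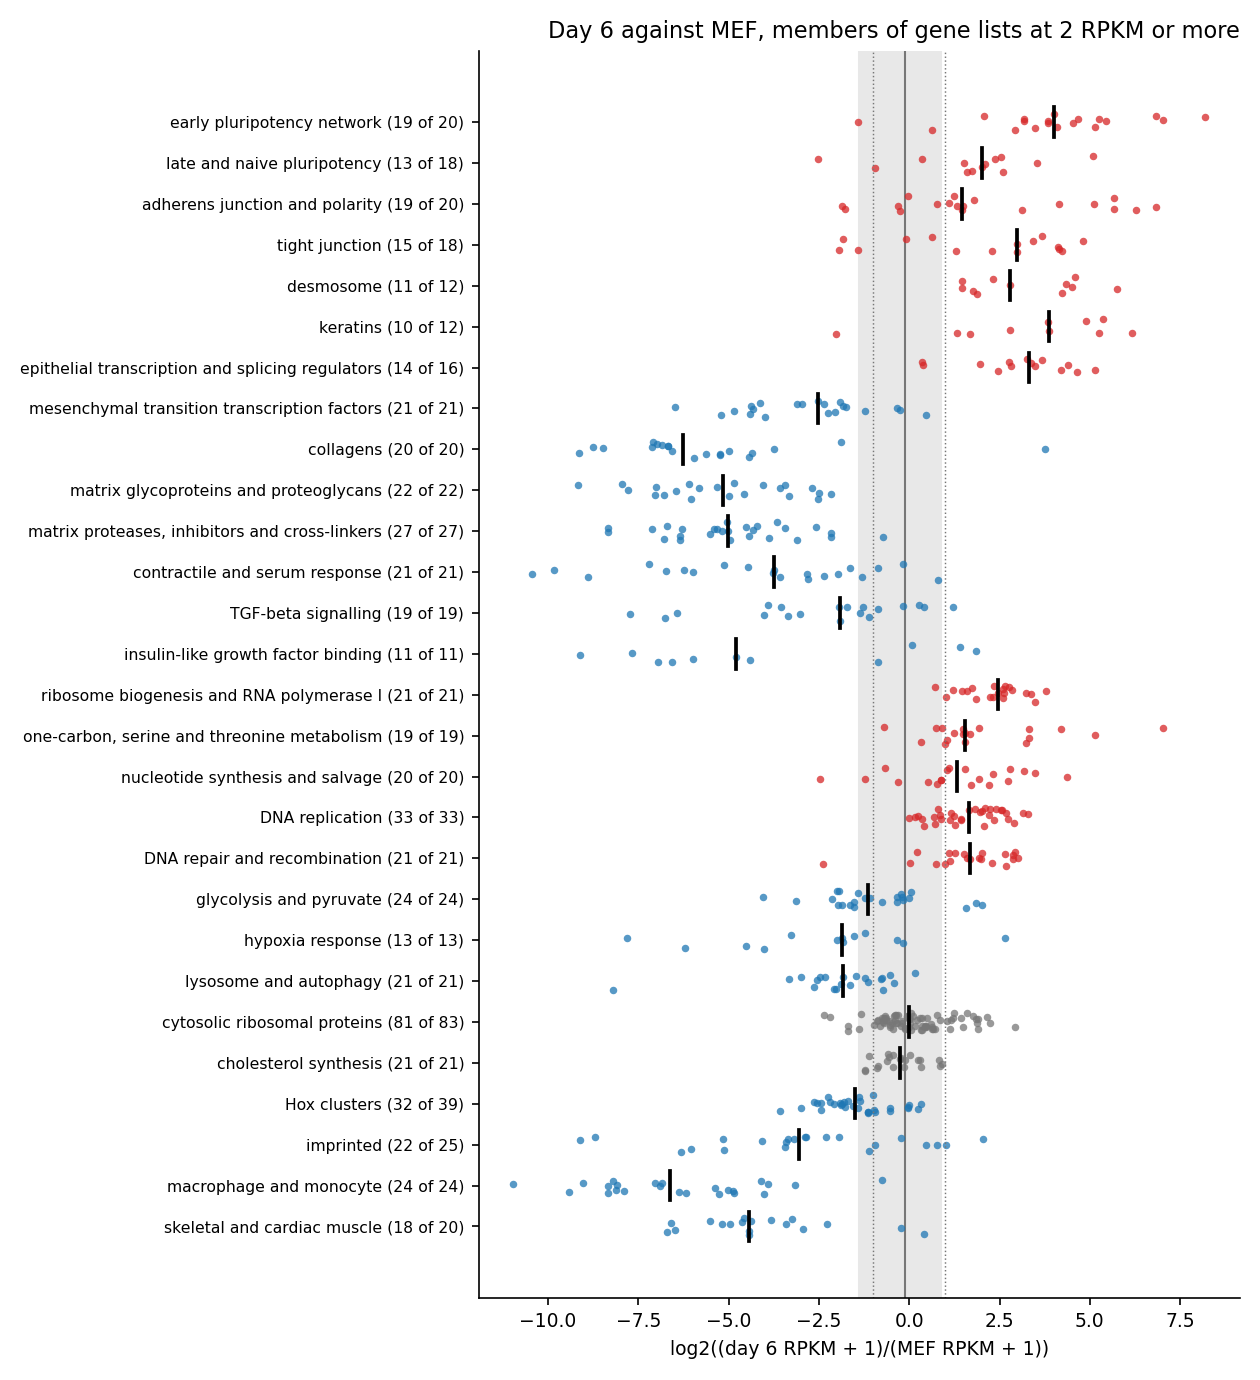
Log2 ratio of day 6 over MEF (x axis) of each member of 28 gene lists (rows) that reached 2 RPKM, with the number of such members of those listed in parentheses. Black bars are medians, in red rows at 1 or more and in blue rows at −1 or less, the grey line and band are the median (−0.13) and quartiles of all 16154 genes, and dotted lines mark 2-fold. Epithelial, pluripotency and biosynthesis lists lie to the right and matrix, contractile and macrophage lists to the left.

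Pluripotency genes were listed by the stage at which they are known to come on. Of 20 listed genes of the early network 17 were higher, 1 lower, 1 within 2-fold and 1 below 2 RPKM, with a tested median of 4.01. The RNA-binding protein gene L1td1 was at 0.213 RPKM in MEF and 354 on day 6 (interval 1123 to 2563), threonine dehydrogenase (Tdh) at 0.154 RPKM in MEF and 149 on day 6, and Nanog, whose promoter drives the Cre that marked these cells, at 0.795 RPKM in MEF and 67.2 on day 6. Sall4 was at 0.0661 RPKM in MEF and 23.6 on day 6, Lin28a at 0.238 RPKM in MEF and 10.3 on day 6 and Esrrb at 0.158 RPKM in MEF and 15.7 on day 6. The iPSC library had 772 RPKM of Nanog, 53.2 of Sall4 and 313 of Esrrb, so day 6 lay between MEF and iPSC for these genes. Of 18 listed late and naive genes 10 were higher, 1 lower, 2 within 2-fold and 5 below the floor, with a tested median of 2.0. Nr5a2 was the highest of them (0.115 RPKM in MEF and 37.3 on day 6), ahead of Tfcp2l1 (0.633 RPKM in MEF and 18.1 on day 6). Zfp42, Dppa3 and Dppa4 were at 9.62, 2.63 and 3.92 RPKM on day 6, above their MEF levels of 0.772, 0.274 and 0.1402. The iPSC library had 617, 4.08 and 113, so Zfp42 and Dppa4 lay far below iPSC on day 6, while Dppa3 was low in both. Klf2 was lower on day 6 than in MEF (9.02 RPKM in MEF and 0.753 on day 6), and Dazl, Prdm14 and Dnmt3l were below 2 RPKM in both libraries. Pluripotency lists overlap the epithelial ones at Epcam, Tfap2c and Klf5. Levels of Pou5f1, Sox2, Klf4 and Myc, with log2 ratios of 8.73, 4.08, 2.38 and 3.03, can include the transgene.

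Among surface markers used to follow reprogramming, the fibroblast marker Thy1 was at 583 RPKM in MEF and 8.04 on day 6 and alkaline phosphatase (Alpl) at 1.99 RPKM in MEF and 64.3 on day 6. Podocalyxin (Podxl) and Cd24a were at 377 and 678 RPKM on day 6 against 7.53 and 54.6. The intercellular adhesion gene Icam1, which is known to return late, was at 60.2 RPKM in MEF and 1.65 on day 6, while Cd44, which is known to be lost on the way, was at 83.7 RPKM in MEF and 161 on day 6. Fut4, which makes the SSEA1 epitope together with Fut9, was below 2 RPKM in both, and Fut9 was at 0.0831 RPKM in MEF and 5.12 on day 6.

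Nodal signalling belongs to the pluripotent epiblast. Its co-receptor Tdgf1 was at 0.196 RPKM in MEF and 51.05 on day 6 and its inhibitor and target Lefty2 at 0.0988 RPKM in MEF and 50.3 on day 6 (interval 284 to 1020.3). The ligand Nodal itself was low, at 0.138 RPKM in MEF and 4.17 on day 6, and Foxh1, the transcription factor of the pathway, was at 0.134 RPKM in MEF and 5.71 on day 6. Of 12 listed genes 6 were higher, 1 lower, 4 within 2-fold and 1, Cfc1, was listed at 0 in both. Lefty1, the paralog of Lefty2, was at 5.08 RPKM in MEF and 2.54 on day 6. In the FGF pathway the ligands differed in both directions. Fgf4, the ligand of pluripotent cells, was at 0.0587 RPKM in MEF and 36.5 on day 6 and the FGF carrier Fgfbp1 at 1.58 RPKM in MEF and 211 on day 6, whereas the mesenchymal ligands Fgf7 and Fgf10 were at 24.8 and 3.81 RPKM in MEF and 0.116 and 0 on day 6. The ERK targets Etv4 and Etv5 were at 86.5 and 139.5 RPKM against 20.96 and 26.6, and Dusp6 lay within 2-fold (40.3 RPKM in MEF and 34.6 on day 6).

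In the BMP list 11 of 19 genes were lower and 1, the ligand Bmp8b, higher (0.3704 RPKM in MEF and 17.5 on day 6). The ligand Bmp4 was at 211 RPKM in MEF and 0.754 on day 6, the antagonist Grem1 at 29.3 RPKM in MEF and 0.0681 on day 6 and the target Id3 at 368 RPKM in MEF and 4.86 on day 6, while the receptors Bmpr1a and Bmpr2 had log2 ratios of −0.46 and 0.02. Of 26 WNT genes 14 were lower and 1, Lef1, higher (2.01 RPKM in MEF and 33.97 on day 6). The secreted WNT inhibitors Sfrp2 and Dkk3 were at 95.96 and 137 RPKM in MEF and 0.326 and 1.11 on day 6, and the target Axin2 was at 7.67 RPKM in MEF and 0.393 on day 6. Receptor tyrosine kinases and growth factors had 17 of 26 lower and 3 higher. The platelet-derived growth factor receptors Pdgfra and Pdgfrb were at 0.249 and 0.385 RPKM against 80.8 and 150.1, and the higher genes were the epithelial ones Erbb3 (2.53 RPKM in MEF and 16.5 on day 6), Areg (1.14 RPKM in MEF and 7.45 on day 6) and Epha2 (35.5 RPKM in MEF and 83.3 on day 6).

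Of 11 listed genes of the insulin-like growth factor ligands, their binding proteins and the Igf2 RNA-binding proteins 7 were lower, 2 higher and 2 within 2-fold. Igf2 was at 3008 RPKM in MEF and 4.404 on day 6, and the binding proteins Igfbp7, Igfbp2, Igfbp3 and Igfbp4 were at 1945, 1342, 564 and 330.4 RPKM in MEF and 8.58, 61.8, 4.999 and 1.67 on day 6, while Igfbp6 lay within 2-fold (66.03 RPKM in MEF and 36.1 on day 6). Their RNA-binding namesakes Igf2bp1 and Igf2bp2 were higher (16.05 RPKM in MEF and 60.4 on day 6, and 90.9 RPKM in MEF and 244 on day 6), and the receptor Igf1r lay within 2-fold (22.7 RPKM in MEF and 17.3 on day 6). On the list of Hippo pathway targets 8 of 14 genes were lower, 1 higher and 5 within 2-fold, with a median of −1.59. Ccn1, Ccn2 and Ankrd1 had log2 ratios of −3.31, −4.51 and −6.16, while the effector Yap1 was at 89.1 RPKM in both libraries. Of its DNA-binding partners Tead4 was higher and Tead3 lower, with Tead4 at 2.89 RPKM in MEF and 103 on day 6 and Tead3 at 56.6 RPKM in MEF and 1.38 on day 6. In the Notch list 3 genes were higher and 4 lower of 15: Notch4 was at 0.131 RPKM in MEF and 28.7 on day 6, Jag2 at 2.697 RPKM in MEF and 23.5 on day 6 and Notch3 at 39.5 RPKM in MEF and 5.56 on day 6.

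Some of the genes with the highest ratios were low in every other library. Of the 40 highest genes, leaving out histones, pseudogenes and unnamed models, 32 had their highest level of all 7 libraries on day 6, and 11 were under 2 RPKM in each of the 5 other libraries besides MEF. Over all 1330 genes at 4-fold or more, 838 had their highest level on day 6 and 174 were under 2 RPKM in the 5 others, while 897 reached 2 RPKM in both iPSC and ESC. These genes were chosen for exceeding MEF on day 6, so a highest level on day 6 follows in part from that choice. The same counts were not made over all tested genes. Ly6g6c, a small surface protein of the Ly6 family, was at 0.317 RPKM in MEF and 1242 on day 6 and 1.25 in iPSC. It lies among 4 neighbouring Ly6g6 genes (chr17:35065388-35085610), and Ly6g6d, Ly6g6e and Ly6g6f were at 17.9, 7.21 and 14.4 RPKM on day 6 against 0.407, 0.351 and 0.234 in MEF. Aldh3a1, an aldehyde dehydrogenase of the corneal epithelium, was at 847 RPKM on day 6 and 0.0197 in MEF, where it had 2 reads, so its ratio has a wide interval of 11804 to 352122. Krtdap, a keratinocyte gene, was at 1.44 RPKM in MEF and 1208 on day 6, Sfn, the epithelial 14-3-3 protein, at 2.38 RPKM in MEF and 292 on day 6, and the natriuretic peptide gene Nppb at 1.05 RPKM in MEF and 353 on day 6. Others near the top were also high in iPSC, such as Aqp3 (102 RPKM on day 6 and 271 in iPSC) and Gpa33 (51.7 and 90.7). Of the Ly6 family list 9 of 15 genes were higher and 2 lower.

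**Figure D4:**
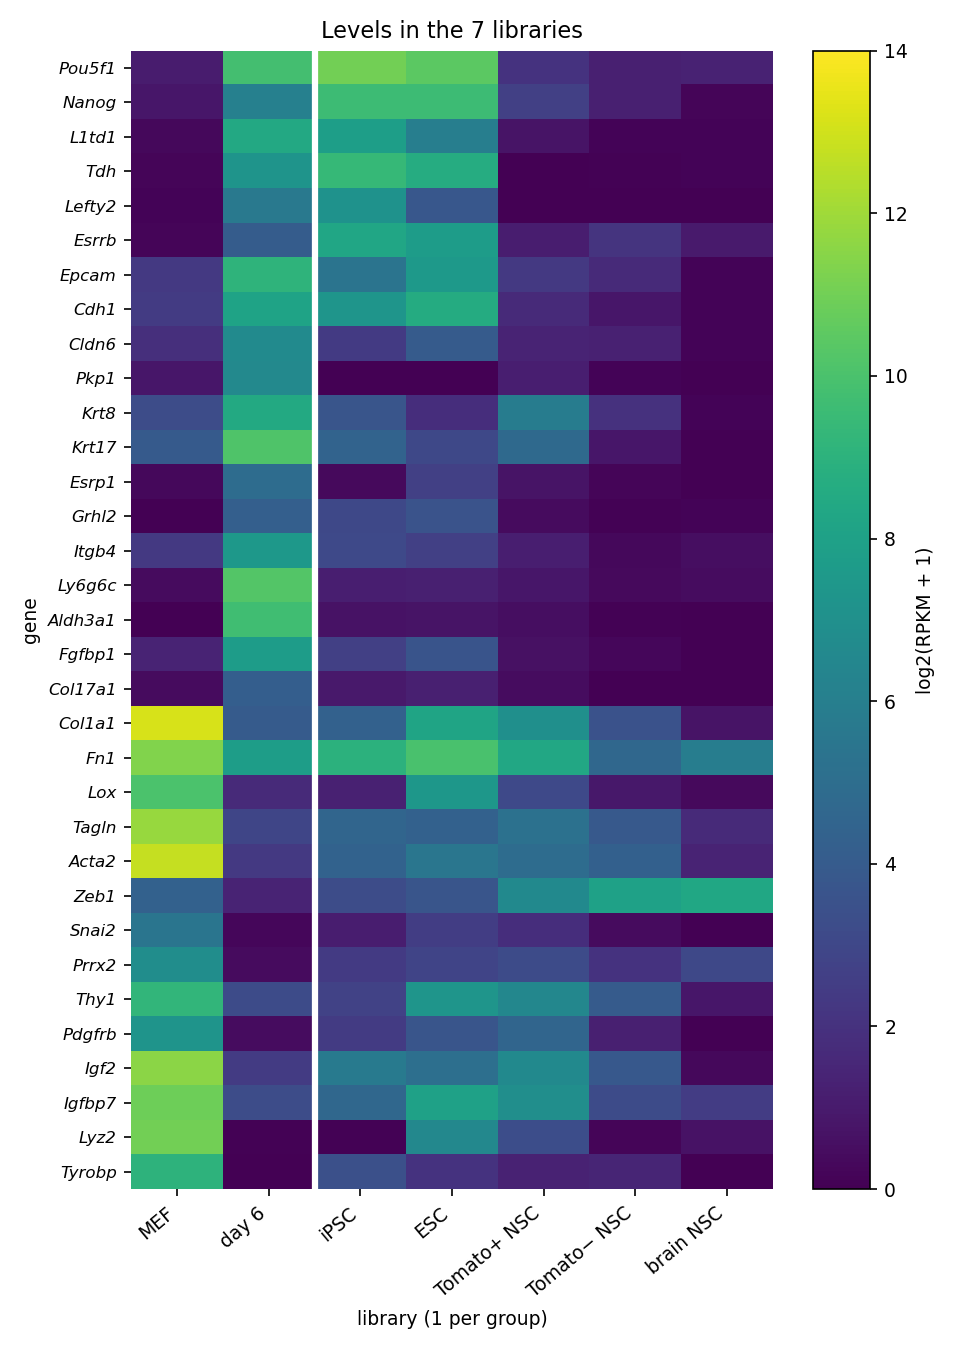
Level of 33 named genes, as log2(RPKM + 1) in colour, in the 7 libraries (columns, 1 library per group) with MEF and day 6 to the left of the white line. Pluripotency genes are high on day 6, iPSC and ESC, keratins, Itgb4, Ly6g6c and Aldh3a1 are highest on day 6, and Col1a1, Acta2, Tagln, Lyz2 and Tyrobp are highest in MEF.

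At the other end, 37 of the 40 lowest genes had their highest level of the 7 libraries in MEF, 13 were listed at 0 on day 6, and 11 were on the macrophage or neutrophil lists. Over all 2607 genes at least 4-fold lower, 1780 had their highest level in MEF and 264 were listed at 0 on day 6. All these genes were chosen for exceeding day 6 in MEF, so a highest level in MEF follows in part from that choice. Highest levels were not counted over all 16154 tested genes, of which 327 were listed at 0 on day 6. Besides Acta2, Myl9, Postn and Col1a1 the lowest genes included the iron carrier Trf (352 RPKM in MEF and 0.0293 on day 6), pentraxin Ptx3 (354 RPKM in MEF and 0.0687 on day 6), glypican Gpc3 (762 RPKM in MEF and 0.833 on day 6) and adrenomedullin (Adm, 496 RPKM in MEF and 1.21 on day 6).

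Of 21 listed genes of ribosome biogenesis and RNA polymerase I, 20 were higher and none lower, with a median of 2.45. Nucleolin (Ncl) was at 112 RPKM in MEF and 817 on day 6 (interval 7.26 to 7.41), the pseudouridine synthase Dkc1 at 16.3 RPKM in MEF and 235 on day 6 and the polymerase subunit Polr1b at 4.796 RPKM in MEF and 59.2 on day 6. Gar1 was the member within 2-fold (29.5 RPKM in MEF and 48.6 on day 6). The cytosolic ribosomal proteins themselves did not follow: of 83 genes 16 were higher, 6 lower and 59 within 2-fold, and their summed level was 63231 RPKM in MEF and 62725 on day 6. Their median of −0.01 became 0.26 when both libraries were scaled to equal protein-coding totals. Ribosomal protein genes have many processed copies in the genome, so their reads are uncertain.

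One-carbon, serine and threonine genes had 14 of 19 higher and none lower (median 1.53). Glycine decarboxylase (Gldc) was at 2.87 RPKM in MEF and 135 on day 6 (interval 43.9 to 53.7), the folate enzymes Shmt1 and Mthfd1 at 127 and 297 RPKM against 5.99 and 30.8, and methionine synthase (Mtr) at 13.5 RPKM in MEF and 143 on day 6. In nucleotide synthesis and salvage 12 of 20 were higher and 2 lower (median 1.31), with Hprt at 24.2 RPKM in MEF and 516 on day 6, the purine enzymes Ppat and Gart at 93.7 and 205 against 7.46 and 30.1, and the pyrimidine enzyme Cad at 17.2 RPKM in MEF and 125 on day 6. The lower members were Aprt (481 RPKM in MEF and 204 on day 6) and Upp1 (7.28 RPKM in MEF and 0.491 on day 6). Ornithine decarboxylase (Odc1), the first enzyme of polyamine synthesis, was at 59.5 RPKM in MEF and 565 on day 6, and asparagine synthetase (Asns) at 109 RPKM in MEF and 788 on day 6.

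Genes of DNA replication were higher in 23 of 33 cases and lower in none, with a median of 1.66. The helicase subunits Mcm2 to Mcm7 lay between log2 ratios of 2.06 (Mcm4) and 2.67 (Mcm2), and Mcm10, Pole and Pola1 led at 3.29, 3.16 and 2.89. DNA repair and recombination genes had 16 of 21 higher, with Chek1 at 5.18 RPKM in MEF and 49.3 on day 6 and Brca1 at 6.54 RPKM in MEF and 54.5 on day 6, and 1, Xrcc3, lower (47.5 RPKM in MEF and 8.26 on day 6). Mitotic genes differed less (median 1.05): 11 of 21 were higher and none lower, and Cdk1 (105 RPKM in MEF and 107 on day 6) and Ccnb2 (118 RPKM in MEF and 120.4 on day 6) were nearly equal. Of 26 listed G1 regulators and p53 targets 5 were higher, 10 lower and 11 within 2-fold. Cyclin D1 (Ccnd1) and cyclin E1 (Ccne1) were at 209.5 and 133 RPKM against 66.02 and 42.4, while the inhibitors Cdkn2b, Cdkn1b and Cdkn1a were at 6.21, 10.3 and 217 against 109, 51.9 and 438. The log2 ratio of Cdkn1a, −1.01, was −0.73 with equal protein-coding totals and 0.33 with the highest exon of the gene. Cdkn2a, whose products restrain reprogramming, was at 149.7 RPKM in MEF and 60.8 on day 6.

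Histone transcripts of the replication clusters were out of proportion among themselves. The 20 measured H2A genes summed to 26.4 RPKM in MEF and 20473 on day 6, and 17 were at least 16-fold higher. The 16 H2B genes summed to 134 and 364 RPKM, the 12 H3 genes to 9.09 and 61.6 and the 13 H4 genes to 18.4 and 140.2. In the 5 other libraries the H2A sum was 8.33 to 66.4 RPKM. These transcripts lack a poly(A) tail, and copies within a cluster share sequence, so single genes are uncertain. In the same library the ribosomal RNA model Gm42418 and Lars2, a mitochondrial leucyl-tRNA synthetase gene, were at 153285 and 1946 RPKM, against 501 and 173 in MEF. Their part in the histone values was not tested.

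Chromatin regulators were mixed. In DNA methylation and demethylation 6 of 16 genes were higher and 1 lower, with the methyltransferases Dnmt3b at 1.01 RPKM in MEF and 22.7 on day 6 and Dnmt1 at 55.2 RPKM in MEF and 226 on day 6, the glycosylase Tdg at 11.98 RPKM in MEF and 104 on day 6 and the dioxygenases Tet2 at 8.81 RPKM in MEF and 62.2 on day 6 and Tet1 at 1.54 RPKM in MEF and 7.43 on day 6. Dnmt3a lay within 2-fold (26.9 RPKM in MEF and 21.5 on day 6). Of 29 Polycomb and trithorax genes 10 were higher and 4 lower. The methyltransferase Ezh2 was at 48.7 RPKM in MEF and 236 on day 6 and Epop, a Polycomb partner of pluripotent cells, at 2.12 RPKM in MEF and 97.7 on day 6, whereas the Polycomb accessory gene Phf1 was at 41.3 RPKM in MEF and 1.69 on day 6. In the BAF and NuRD list 8 of 27 were higher and 2 lower, led by Hdac1 (9.56 RPKM in MEF and 104 on day 6) and Smarcc1, the BAF subunit of pluripotent cells (40.03 RPKM in MEF and 181 on day 6). Its paralog Smarcc2 was at 63.3 RPKM in MEF and 26.9 on day 6 and the mesodermal subunit Smarcd3 at 41.9 RPKM in MEF and 0.539 on day 6. Mbd3, for which the MEF strain carries a floxed and a deleted allele, was at 65.3 RPKM in MEF and 136 on day 6.

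Of 24 listed genes of glycolysis and pyruvate 13 were lower, 3 higher and 8 within 2-fold (median −1.15; −0.88 with equal protein-coding totals, −0.95 by the median over non-overlapping exons and −0.33 with the highest exon of each gene). The lactate exporter Slc16a3 was at 231 RPKM in MEF and 13.1 on day 6, Ldha at 1458 RPKM in MEF and 544 on day 6 and Aldoa at 3401 RPKM in MEF and 848 on day 6, while the higher members were the glucose transporter Slc2a3 (68.8 RPKM in MEF and 279 on day 6), hexokinase Hk2 (30.8 RPKM in MEF and 114 on day 6) and the lactate importer Slc16a1 (21 RPKM in MEF and 64.3 on day 6). Hypoxia-response genes were lower in 10 of 13 cases and higher in 1, with carbonic anhydrase Car9 at 84.3 RPKM in MEF and 0.143 on day 6 and Bnip3 at 233 RPKM in MEF and 13.4 on day 6. Hif1a lay within 2-fold (88.7 RPKM in MEF and 69.6 on day 6) and Epas1 was the higher gene (5.91 RPKM in MEF and 42.8 on day 6). Nuclear-encoded respiratory chain genes had 6 higher, 9 lower and 18 within 2-fold of 34, and among paired isoforms Cox4i2 was at 198 RPKM in MEF and 0.617 on day 6 where Cox4i1 was at 1249 RPKM in MEF and 796 on day 6. The 13 mitochondrially encoded genes measured were listed at 0 in both libraries.

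Lysosomal genes were mostly lower. In the lysosome and autophagy list 15 of 21 lay at least 2-fold below MEF and 0 above it (median −1.84), with cathepsin B (Ctsb) at 885 RPKM in MEF and 143 on day 6 and cathepsin D (Ctsd) at 1441 RPKM in MEF and 340.3 on day 6. Cathepsin S, a macrophage enzyme, was at 325 RPKM in MEF and 0.109 on day 6. Of 21 listed genes of endoplasmic reticulum stress and secretion 9 were lower, 2 higher and 10 within 2-fold (median −0.77). The lowest ratios were those of the retrieval receptor Kdelr3 (393 RPKM in MEF and 10.4 on day 6) and the coat subunit Sec24d (137 RPKM in MEF and 6.18 on day 6), while the chaperones Hspa5 and Calr lay within 2-fold (log2 ratios −0.39 and −0.09). Cholesterol synthesis differed little, with 18 of 21 genes within 2-fold. Redox genes went both ways, 9 higher and 8 lower of 27. Superoxide dismutase Sod1 was at 315 RPKM in MEF and 1884 on day 6 and glutathione transferase Gsta4 at 30.1 RPKM in MEF and 829 on day 6, against Gpx8 at 300.4 RPKM in MEF and 7.04 on day 6 and Hmox1 at 178 RPKM in MEF and 35.8 on day 6. Aldehyde dehydrogenases also split, 4 higher and 9 lower of 18, with Aldh1a2, which makes retinoic acid, at 36.7 RPKM in MEF and 1.06 on day 6.

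Immune and inflammatory genes were mostly lower, and the macrophage and neutrophil transcripts of the MEF library moved with them. Of 21 listed cytokines, chemokines and secreted inflammatory genes 15 were lower, none higher and 4 below 2 RPKM. The stromal chemokine Cxcl12 was at 198 RPKM in MEF and 0.0548 on day 6, Ccl2 at 169.6 RPKM in MEF and 6.52 on day 6 and the acute-phase gene Saa3 at 972 RPKM in MEF and 1.95 on day 6. Interferon-response genes had 12 of 18 lower and none higher (median −1.29), with Isg15 at 91.6 RPKM in MEF and 8.37 on day 6 and Ifitm3 at 1415 RPKM in MEF and 166 on day 6. In antigen presentation 10 of 14 were lower, among them B2m (2822 RPKM in MEF and 1042 on day 6) and the peptide transporter Tap2 (27.6 RPKM in MEF and 0.829 on day 6), and H2-Eb1 was higher (4.2 RPKM in MEF and 16.8 on day 6). The macrophage markers beside them were C1qa, C1qb and C1qc at 279, 325 and 238 RPKM in MEF and without reads on day 6, and Lyz2 at 2098 RPKM in MEF and 0.0542 on day 6. Their part in the lower cytokine and antigen genes was not tested.

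Of 39 Hox genes measured, none was higher, 23 were lower, 9 lay within 2-fold and 7 did not reach 2 RPKM, with a tested median of −1.50. Hoxc8 was at 14.2 RPKM in MEF and 0.278 on day 6 and Hoxa3 at 11.3 RPKM in MEF and 0.533 on day 6, whereas Hoxb7 (10.2 RPKM in MEF and 9.99 on day 6) and Hoxc4 (8.18 RPKM in MEF and 9.92 on day 6) were nearly equal. Of 22 limb and trunk patterning factors 17 were lower and none higher, with Msx1 at 19.3 RPKM in MEF and 0.0225 on day 6 and Shox2 at 23.9 RPKM in MEF and 0.592 on day 6. The 23 measured imprinted genes had 16 lower and 2 higher. H19 was at 18104 RPKM in MEF and 42.2 on day 6 and Dlk1 and Meg3, of 1 imprinted locus, at 3.31 and 3.68 RPKM against 283 and 369, while Peg3 lay within 2-fold (177 RPKM in MEF and 151 on day 6) and Phlda2 was higher (0.411 RPKM in MEF and 4.796 on day 6). Of 22 listed genes of germ layers and primed epiblast 3 were higher, 4 lower, 2 within 2-fold and 13 below 2 RPKM in both libraries. The neural genes Zic5 (2.02 RPKM in MEF and 6.102 on day 6) and Sox1 (0.0276 RPKM in MEF and 2.24 on day 6) were higher. Gata4, Gata6 and Hand2 were at 12.7, 17.9 and 21.4 RPKM in MEF and 1.06, 0.422 and 0 on day 6.

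Markers of other lineages that a day 6 population could hold were checked. In the trophoblast and surface ectoderm list 7 of 18 genes were higher, 3 lower and 8 below the floor. Their summed level was 106 RPKM in MEF and 693 on day 6, and the median was 3.11 over tested members and 0.08 over all 18. The higher ones were Krt14, Cldn6, Tead4, Elf5, Tfap2c, Krt5 and Tfap2a (4.83 RPKM in MEF and 38.3 on day 6). The trophoblast markers Cdx2, Tpbpa and Prl3d1 were at 0.0673, 0 and 0 RPKM on day 6 and 0, 0 and 0.0925 in MEF. Neural progenitor and neuronal genes had 6 higher and 6 lower of 22. The neurofilament gene Nefl was at 2.301 RPKM in MEF and 97.3 on day 6 and Stmn2 at 97.6 RPKM in MEF and 609 on day 6, but Sox3 and Dcx were at 0 and 0.0297 RPKM on day 6. Of 12 neural crest and Schwann cell genes 3 were higher, 4 lower, 2 within 2-fold and 3 below the floor, and their summed level was 44.04 RPKM in MEF and 115 on day 6. Ngfr (4.48 RPKM in MEF and 72.4 on day 6), Pmel (2.25 RPKM in MEF and 16.7 on day 6) and Erbb3 were higher, and Sox10, which defines neural crest, was lower (7.54 RPKM in MEF and 0.00801 on day 6). Endothelial genes were below 2 RPKM in 7 of 12 cases, with Tek higher (0.476 RPKM in MEF and 35.9 on day 6) and Cdh5 at 0.0819 RPKM. Cartilage and bone genes had 9 of 15 lower, adipocyte genes 3 of 10 and erythroid genes 2 of 10.

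Since the file gives single exons, genes with known alternative exons were read exon by exon. Cd44, a hyaluronan receptor, carries a block of variable exons that epithelial cells are known to include through Esrp1. The 10 exons of this block had log2 ratios of 1.54 to 2.34 (median 1.70) and lay at 45.5 to 97.3 RPKM in MEF and 152 to 428 on day 6. The 9 constitutive exons had log2 ratios of −0.53 to 2.0 (median 0.81), lay at 119 to 239.9 RPKM in MEF and 81.8 to 677 on day 6, so the ranges overlapped. This has to be set beside the unevenness of the day 6 library. Over 43523 exons of 3728 genes at 10 RPKM or more in every library, the interquartile range of exon log2 ratios against MEF around their gene's median was 0.881 on day 6 and 0.276 to 0.383 in the 5 other libraries, and 17.2% of exons on day 6 lay 2-fold or more from that median, against 0.437% to 3.21%. Median deviations on day 6 by GC content of the exon lay between −0.03 and 0.08. The median deviation was 0.37 for exons nearest the start of a transcript and −0.31 for those nearest its end, against 0.18 to 0.31 and −0.29 to −0.17 in the 5 others. This tilt thus had the same direction in every library set against MEF and was not particular to day 6. A difference of a single exon on day 6 is therefore given here only as a value. For the splicing regulators themselves, 8 of 23 were higher and 4 lower, with Esrp2 at 3.26 RPKM in MEF and 22.4 on day 6 and Mbnl2 at 126 RPKM in MEF and 61.3 on day 6.

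**Figure D5:**
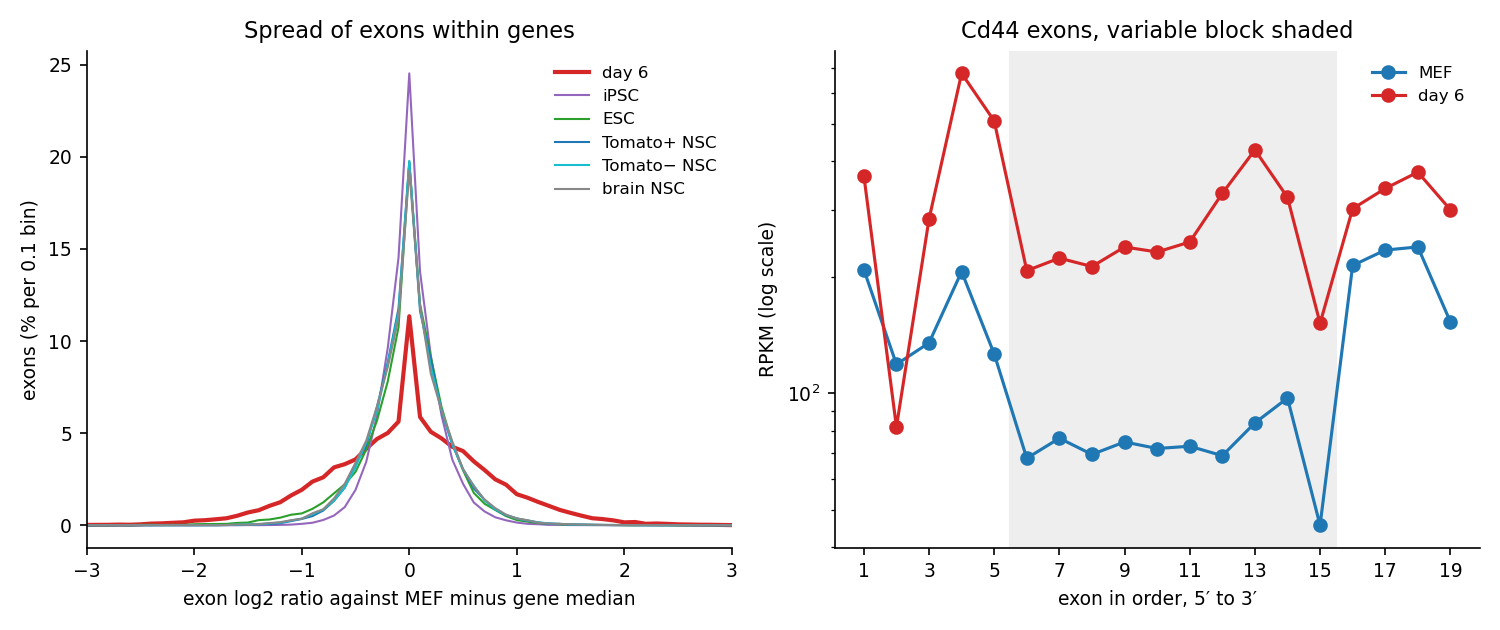
Left, distribution of exon log2 ratios against MEF around the median of their gene (x axis) as % of 43523 exons per bin of 0.1 (y axis), for 6 libraries, where day 6 (red) has the widest curve. Right, RPKM (log scale) of 19 Cd44 exons in order in MEF (blue) and on day 6 (red), where the 10 exons of the shaded variable block lie at 45.5 to 97.3 RPKM in MEF and 152 to 428 on day 6.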

How the data were processed

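RPKM values per Ensembl exon were deposited by the authors as 1 table of 7 libraries, of which MEF and day 6 were compared and the others used for levels. Per the submitters' processing notes the tools were CASAVA 1.8.2, Bowtie, TopHat2 2.0.10 and bedtools, with the mm10 build; how each was used is not given in the sources used here. Of 279252 exons, 270168 (96.7%) were matched by ID to GENCODE M21, which gave 29686 genes. The gene value was the exon mean weighted by exon length. RPKM are not counts, so no count model was used. The kit (TruSeq v2, per the labels) does not mark strand, so reads of overlapping genes cannot be told apart.

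Whole reads were recovered from the steps of the values at 45 megareads for MEF and 46 for day 6. With a tolerance of 0.01 read and a relative one of 1e-05, up to 5000 reads, 96.4% and 96.3% of values came out whole. From reads over non-overlapping exons, 95% exact (Clopper-Pearson) intervals of the read ratio were computed, printed only where they hold the RPKM ratio. They cover counting error only. With 0 reads the upper bound still lies above 0: C1qa, with 0 reads on day 6 and 13071 in MEF, had a read ratio of up to 0.000276.

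The pseudocount was 1, the floor 2 RPKM, and calls were made at 2-fold for list members and 2-fold and 4-fold for all genes. The 75 gene lists, the members and the comparison were chosen with earlier results of these data known, so lists are described by counts and medians. Named genes are list members, with preference for large ratios and defining members, and the 40 highest and 40 lowest genes with a symbol, leaving out unnamed models, pseudogenes and histones. Gm42418 and Lars2 are from a list of non-polyadenylated RNAs. The splits for motif shares and the exon-spread check were chosen after values were seen. The calls were also run on simulated data with 200 changed genes. Both simulated libraries were drawn from the MEF values with counting noise only. This tries the calculation and cannot show the effect of differences between libraries or of uneven exons. Python 3.11.15 with pandas 2.3.3, numpy 2.4.6 and scipy 1.17.1 was used. Alternatives of scaling, pseudocount, floor, exon choice and gene type were tried. A few withheld genes are not reported here.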

Additional observations from a re-analysis of the deposited data

How the results depend on the processing

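With a pseudocount of 4 the 4-fold counts were 755 higher and 1556 lower, and with the highest exon of each gene 2810 genes were at least 4-fold higher and 3513 lower, and 5700 at least 2-fold higher and 5730 lower. A larger pseudocount shrinks the ratios of low genes; the cause of the change with the highest exon was not tested. The other 44 of 48 values of the 4 counts stayed within 1.5 times, but the order of the 2-fold counts turned with equal protein-coding totals (4575 higher, 4416 lower) and without histones, ribosomal RNA models and mitochondrial genes (4676 and 4358). Scaling both libraries to equal protein-coding totals multiplied day 6 values by 1.21 and moved the median of all genes from −0.13 to 0.14, and the share of higher genes among those past 4-fold from 33.8% to 42.1%; without histones, ribosomal RNA models and mitochondrial genes the share was 43.0%, and with the highest exon 44.4%. The list medians of cholesterol synthesis and the respiratory chain, −0.27 and −0.25, turned to 0.00 and 0.02 with protein-coding totals. Of 884 list medians under the alternatives, 842 stayed on their side of 2-fold and 42 crossed it, and no list past 2-fold changed direction; of 3586 values of 301 named genes, 56 crossed it. With the highest exon of each gene the log2 ratios of Cdkn1a and Tgfbr1 were 0.33 and 0.47 in place of −1.01 and −1.37. The median over non-overlapping exons was an alternative chosen after seeing the data. Depth limits genes near the floor: with a floor of 8 RPKM 12893 genes were tested. No paired analysis was possible because each group has 1 library, so there is also no replicate to leave out.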
